A study of Mus musculus with 8 samples.

Results

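POU domain genes encode transcription factors that grip DNA with a POU-specific domain joined to a POU homeodomain, and 8 of them were followed here through the Polycomb mark H3K27me3. The members were chosen by name: Pou4f1, Pou4f2 and Pou4f3 of sensory neurons, Pou3f1, Pou3f2 and Pou3f3 of neural progenitors, Pou5f1 of pluripotent cells, and Pou2f3 of tuft cells and epidermis. An H3K27me3 region was assigned to a gene when it overlapped the GRCm38 body of the gene or the 5 kb on either side. By this rule 10 of the 13585 regions of the series lay over 6 of the 8 genes. Pou3f2 and Pou3f3 had no region. Of 21755 protein-coding genes, 43.3% had a region under the same rule.

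H3K27me3 was profiled by chromatin immunoprecipitation and sequencing (ChIP-seq) in neural stem cells (NSCs), a primary culture grown from the cortex of E14.5 female C57BL/6J embryos and kept under 10 passages. All cells carried the endogenous Smchd1 gene with a GFP tag. The comparison set Smchd1GFP+/+ cells (WT) against Smchd1GFPMommeD43/MommeD43 cells, homozygous for the MommeD43 missense variant of the chromatin silencing protein SMCHD1, which was made by CRISPR on C57BL/6. The 8 samples were 3 ChIP libraries per genotype, each from a separate cell line, and 1 whole cell extract library per genotype, and the question was whether H3K27me3 sat at the same places in both. The study's authors regard ChIP-seq as a poor gauge of how much of a histone mark is present, which limits every comparison of levels below. By immunofluorescence they reported modestly but significantly lower H3K27me3 in MommeD43 NSCs, on the inactive X chromosome and over the nucleus as a whole. Each value below is the authors' pooled value of a genotype and so has no SD, and no difference between genotypes could be tested against the spread between cell lines.

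H3K27me3 is written by Polycomb repressive complex PRC2, typically over CpG-rich starts of developmental regulators that are silent in a given cell type. Pou4f factors drive the differentiation of sensory neurons, retinal ganglion cells and inner ear hair cells, Pou3f factors act in neural progenitors and migrating neurons, and Pou5f1 keeps embryonic stem cells pluripotent. Transcription was not measured in these samples. As a check of the cell type, H3K27me3 regions lay over 6 of 7 marker genes of mesoderm, endoderm and blood, 4 of 5 of sensory neurons, 3 of 5 of neurons and 2 of 5 of pluripotent cells. They lay over 5 of 11 NSC markers, namely Nes, Hes1, Hes5, Msi1 and Slc1a3, and were lacking over Sox2, Vim, Fabp7, Notch1, Olig2 and Egfr. The shares of NSC and pluripotent markers were thus near the 43.3% of all protein-coding genes, and the mark alone does not tell the cell type.

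The sequence just upstream of a gene start is shown for 5 members, to set starts with dense, sparse and no H3K27me3 side by side. Each line gives the 250 bases before the RefSeq start in GRCm38.p6, read 5′ to 3′ along the gene's strand, with every CpG dinucleotide in capitals.
Pou4f1: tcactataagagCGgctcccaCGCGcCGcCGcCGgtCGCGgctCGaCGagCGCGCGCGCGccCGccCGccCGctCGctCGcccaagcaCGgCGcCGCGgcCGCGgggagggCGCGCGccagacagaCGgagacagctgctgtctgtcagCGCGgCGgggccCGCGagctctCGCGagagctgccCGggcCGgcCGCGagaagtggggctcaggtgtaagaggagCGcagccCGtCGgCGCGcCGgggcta
Pou4f2: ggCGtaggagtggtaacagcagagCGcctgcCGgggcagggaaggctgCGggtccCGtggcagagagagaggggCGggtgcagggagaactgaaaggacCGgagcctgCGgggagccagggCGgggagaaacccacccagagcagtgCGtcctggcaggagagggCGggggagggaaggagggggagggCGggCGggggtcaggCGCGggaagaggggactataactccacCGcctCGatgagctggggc
Pou3f2: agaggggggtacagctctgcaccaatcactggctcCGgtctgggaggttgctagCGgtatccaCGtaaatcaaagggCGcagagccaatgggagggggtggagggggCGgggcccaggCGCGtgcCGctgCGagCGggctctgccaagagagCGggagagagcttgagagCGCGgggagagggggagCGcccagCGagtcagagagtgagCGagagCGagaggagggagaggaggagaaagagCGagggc
Pou3f3: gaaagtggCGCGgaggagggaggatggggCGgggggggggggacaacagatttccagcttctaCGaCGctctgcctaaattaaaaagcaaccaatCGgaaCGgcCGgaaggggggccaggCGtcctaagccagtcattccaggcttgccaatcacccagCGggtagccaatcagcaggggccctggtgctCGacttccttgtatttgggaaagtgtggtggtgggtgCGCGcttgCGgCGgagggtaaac
Pou5f1: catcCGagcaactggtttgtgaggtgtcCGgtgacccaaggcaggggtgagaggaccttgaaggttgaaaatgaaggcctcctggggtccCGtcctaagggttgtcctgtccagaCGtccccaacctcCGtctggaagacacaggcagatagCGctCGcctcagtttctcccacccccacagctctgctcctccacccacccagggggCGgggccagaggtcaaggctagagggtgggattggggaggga

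These stretches lie at chr14:104468000-104468249 on the minus strand for Pou4f1, chr8:78436648-78436897 on the minus strand for Pou4f2, chr4:22488367-22488616 on the minus strand for Pou3f2, chr1:42695518-42695767 on the plus strand for Pou3f3 and chr17:35505782-35506031 on the plus strand for Pou5f1. Pou4f1 held 47 CpGs, and 0.25% of 32851 RefSeq promoters of this length held as many or more. Pou3f2, with 18 CpGs, Pou4f2, with 17, and Pou3f3, with 15, were alike in this respect, and 21.7% to 27.3% of promoters reached their counts. Pou5f1 held 8, against a median of 6 over all promoters. The octamer ATGCAAAT, the classical POU motif, or its reverse complement ATTTGCAT was present in 1.60% of promoters and had 0 matches in these 5. Among these 5, CpG count therefore separated Pou4f1 from the rest. It did not separate Pou4f2, which lay under a dense H3K27me3 region, from Pou3f2 and Pou3f3, which had none. The promoter of Pou4f3 was not among those read.

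The deposited values are log2 read counts per region, normalized for library size and not divided by region length. Levels of different genes are therefore compared here as normalized counts per kb of region, and genotypes as the log2 difference, MommeD43 minus WT. Each region holds called peaks plus 2.5 kb on either side. Region lengths and coverage thus include flanks outside the peaks, which weigh most on the per-kb values of short regions. No correction was made for this. Each read counted for 3.27 normalized counts in the WT column and for 2.63 in the MommeD43 column, which gives the reads per library behind each region and the smallest counting error of its difference. All errors and 95% intervals below are of this kind, cover the counting of reads alone, and leave out variation between cell lines. PCR copies are not separate molecules, which these errors do not take into account.

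**Figure D1:**
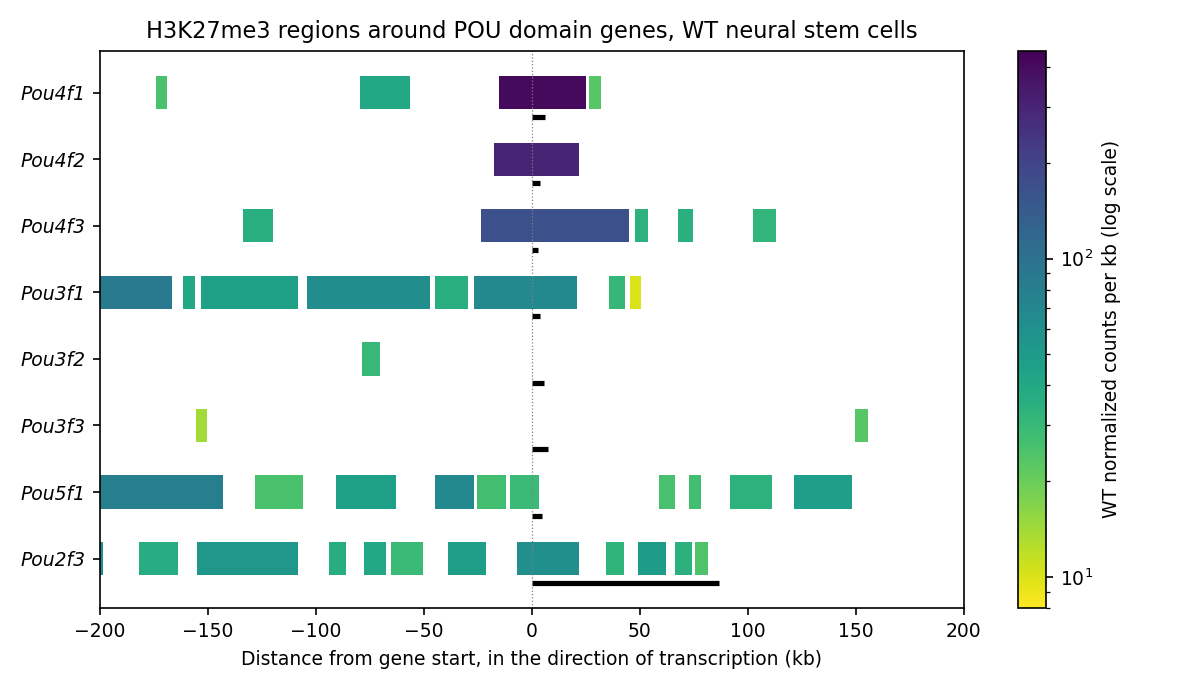
H3K27me3 regions within 200 kb of the start of each POU domain gene, drawn as boxes coloured by WT normalized counts per kb (log scale), with the gene body as a black bar below and distance in the direction of transcription on the x axis. Single dense regions covered the Pou4f genes, Pou3f1 lay inside a run of regions, and no region reached Pou3f2 or Pou3f3.

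The sensory neuron genes of the Pou4f group carried the densest H3K27me3 of all members. Each sat inside 1 long region that covered its whole body and ran far past it on both sides. The region over Pou4f1, chr14:104442951-104483050, spanned 40.1 kb around a gene of 6324 bp on the minus strand, from 15.1 kb upstream to 25.05 kb downstream of the start. Its log2 value was 13.99 in WT and 14.15 in MommeD43, from 4984 and 6898 reads per library. Per kb this came to 406 normalized counts in WT and 453 in MommeD43, rank 8 and rank 17 of the 13585 regions. Pou4f1 was thus among the most densely marked loci of the genome in NSCs of either genotype. The region also reached the protein-coding gene Rnf219, the lincRNA D130079A08Rik and a pseudogene, Gm49205, whose share of the reads cannot be told apart from that of Pou4f1.

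Pou4f2, which specifies retinal ganglion cells, lay in chr8:78414801-78454000, 39.2 kb long with no other annotated gene inside. Its log2 value was 13.52 in WT and 13.65 in MommeD43, or 300.02 and 329 normalized counts per kb, ranks 37 and 64. It stood alone, since the nearest other regions were 384 kb upstream and 314 kb downstream of the gene. Pou4f3, required for survival of inner ear hair cells, lay in the longest member region, chr18:42371001-42439600, of 68.6 kb. Its log2 value was 13.50 in WT and 13.79 in MommeD43, or 169 and 206 normalized counts per kb, ranks 183 and 199. The order Pou4f1, Pou4f2, Pou4f3 was the same in both genotypes, and the counting interval of each step in it excluded 0. In WT the step from Pou4f1 to Pou4f2 was 0.44 on the log2 scale (0.40 to 0.47) and that from Pou4f2 to Pou4f3 was 0.83 (0.79 to 0.87).

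Between genotypes the Pou4f regions were close. The MommeD43 value exceeded the WT value by 0.16 at Pou4f1 (SE 0.015, interval 0.13 to 0.19), a fold of 1.12. This difference turned to -0.084 when both columns were scaled to the same sum over all regions (region totals set equal), and to -0.16 with its trend with abundance removed. At Pou4f2 the difference was 0.13 (SE 0.018, interval 0.096 to 0.17), and it was -0.11 and -0.18 under these alternatives. At Pou4f3 it was 0.29 (SE 0.018, interval 0.25 to 0.32), a fold of 1.22, and it was 0.048 with region totals set equal and -0.021 with the abundance trend removed. All 3 thus lay above WT as deposited, as did 60.2% of all regions. They were also outside the counting interval, as were 40.9% of all regions, a share not matched for read depth. Their direction, however, rested on the treatment of the values. Their differences were higher than 58.5%, 56.0% and 71.5% of autosomal regions at Pou4f1, Pou4f2 and Pou4f3, which no common scaling factor moves. Among the 614 autosomal regions of 39.2 to 68.6 kb, the lengths spanned by the Pou3f1 and Pou4f regions, they were higher than 45.8%, 44.1% and 59.9%, and with the abundance trend removed higher than 36.7%, 35.3% and 50.9% of autosomal regions.

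Base composition moved with the difference across autosomal regions, in which GC-rich regions were higher in MommeD43, while X-linked regions, with a median GC content of 39.7%, had a median difference of 0.49. The Pou4f regions had GC contents of 44.4%, 43.8% and 44.7%, below the autosomal median of 46.3%. Within the decile of autosomal regions of like GC content, the differences of Pou4f1, Pou4f2 and Pou4f3 were higher than 71.3%, 77.1% and 84.1% of the other values. The medians of those deciles were -0.012 for Pou4f1 and Pou4f3 and -0.10 for Pou4f2. With the GC trend removed the differences were 0.21, 0.23 and 0.31, and removal of a further trend with read density left -0.015, 0.0031 and 0.11. The part of GC content and density in these values was not tested.

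Regions near Pou4f1 had lower differences than it. The 6 other regions within 500 kb had a median difference of -0.46 as deposited, with 2 above 0, where 60.2% of all regions were. The closest of them, 20.03 kb past the 3′ end of the gene at chr14:104435901-104441650, had a log2 value of 7.06 in WT and 6.09 in MommeD43, a difference of -0.97 (SE 0.21). Around Pou4f2 and Pou4f3 the medians were -0.019 over 4 regions and 0.044 over 5.

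Of the 3 member genes of the Pou3f group, only Pou3f1 had a region. Pou3f1, also a regulator of Schwann cell myelination, lay in chr4:124630251-124677700, 47.45 kb long, which covered all of the gene's 3849 bp on the plus strand and ran from 26.6 kb upstream to 20.9 kb downstream of its start. The antisense gene Gm2164 shared the region. Its log2 value was 11.65 in WT and 12.37 in MommeD43, from 979.8 and 2008 reads per library. Per kb this was 67.5 normalized counts in WT and 111 in MommeD43, rank 1286 and rank 650. Pou3f1 was marked less densely than any Pou4f gene in both genotypes. The density of Pou4f1 was 6.02 times that of Pou3f1 in WT and 4.07 times in MommeD43, and for Pou4f3 the ratios were 2.499 and 1.85.

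Pou3f1 had the highest difference of the 10 regions. MommeD43 exceeded WT by 0.72 (SE 0.032, interval 0.66 to 0.79), a fold of 1.65, and stayed above WT under all 6 other treatments of the values, at 0.29 to 0.72. The lowest of these was with the GC and density trends removed, at 0.29, which is less than the deposited value by more than 1.5 times. The difference was higher than 89.8% of all regions and 94.6% of autosomal regions. Among the 614 autosomal regions of like length it was higher than 93.3%, and the median difference of that set was 0.20. Pou3f1 had been near the middle of these long regions in WT, above 51.5% of them per kb, and stood above 72.6% of them in MommeD43. Pou4f1 was near the top of these regions in both, at 99.2% and 98.9%.

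The difference at Pou3f1 exceeded that at Pou4f1 by 0.57 (0.50 to 0.64), at Pou4f2 by 0.59 (0.52 to 0.66), at Pou4f3 by 0.43 (0.36 to 0.51) and at Pou5f1 by 0.47 (0.27 to 0.68). These comparisons within the table do not depend on a scaling factor, but they have no replicate check. With the GC trend removed, Pou3f1 was at 0.39 and the gaps were 0.18 to Pou4f1 (0.11 to 0.25), 0.16 to Pou4f2 (0.085 to 0.23), 0.073 to Pou4f3 (2.8e-05 to 0.15) and 0.40 to Pou5f1 (0.20 to 0.61). The gap to Pou5f1 was 0.27 with the abundance trend removed (0.067 to 0.48) and as large without GC and density trends (0.066 to 0.48). The Pou3f1 region was rich in GC, at 51.6%, in the top decile of autosomal regions. That decile had a median difference of 0.39, and Pou3f1 was higher than 84.8% of its 1171 regions. As deposited, its surroundings were also high in MommeD43. Of the 19 other regions within 500 kb, 18 had a difference above 0, beside 60.2% of all regions, and their median was 0.40. Equal region totals lower each of these values by 0.24. The adjoining regions differed by 0.26 (SE 0.083) upstream and 0.43 (SE 0.13) downstream. Whether GC content or the neighbourhood had a part in the Pou3f1 value was not tested.

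**Figure D2:**
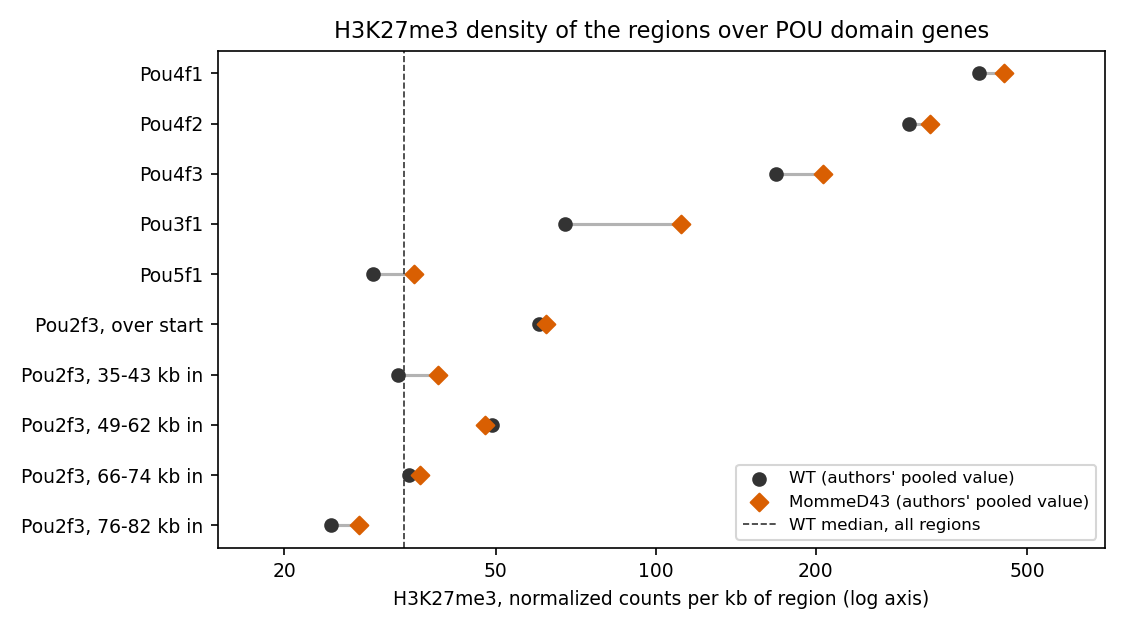
H3K27me3 density of each region over a POU domain gene, in normalized counts per kb on a log axis, as the authors' pooled value for WT (circles) and MommeD43 (diamonds), with the WT median of all regions dashed. The Pou4f genes stood far right in both genotypes, and Pou3f1 had the widest gap between the symbols, from 67.5 to 111.

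Pou3f2 and Pou3f3, which act redundantly in cortical progenitors and upper-layer neurons, were the members without a region. Pou3f2, at chr4:22482780-22488366 on the minus strand, was 70.3 kb from the nearest one, upstream at chr4:22558701-22567150. That region had a log2 value of 7.995 in WT and 7.41 in MommeD43, a difference of -0.58 (SE 0.14), and was the only one within 500 kb. On the other side the nearest region was 758 kb away. Pou3f3, at chr1:42695768-42703176 on the plus strand, was 142 kb from the nearest region, downstream at chr1:42845451-42851200, which had 7.05 in WT and 6.76 in MommeD43, a difference of -0.29 (SE 0.18). As deposited, all 5 regions within 500 kb of Pou3f3 were lower in MommeD43, with a median of -0.72, where 39.8% of all regions were lower. Of protein-coding genes, 31.6% lay at least as far from a region as Pou3f2 and 22.3% at least as far as Pou3f3. With no region called in either genotype, neither gene has a value here, so whether they carry a level below the peak caller's threshold was not analysed here.

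**Figure D3:**
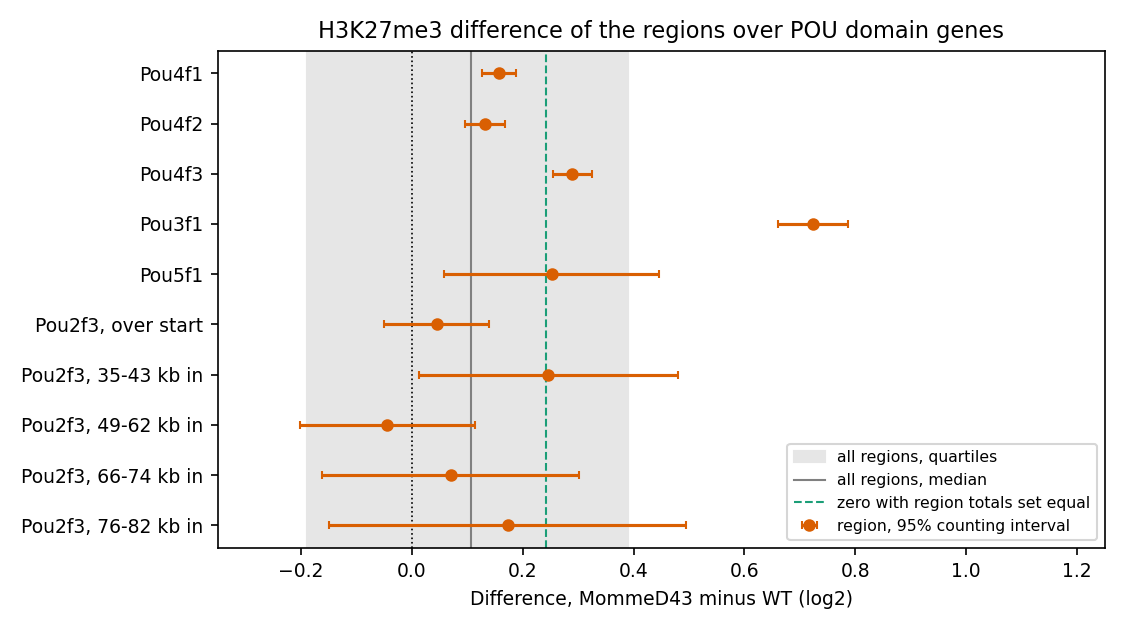
Log2 difference, MommeD43 minus WT, of each region over the 6 member genes, with its 95% counting interval; the band spans the quartiles of all regions, the grey line is their median and the dashed line marks 0 with region totals set equal. Of the 10 member regions drawn, only Pou3f1 lay beyond the upper quartile of 0.39, and Pou4f1, Pou4f2 and 4 of the 5 Pou2f3 regions lay left of the dashed line.

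Pou5f1, the pluripotency factor also called Oct4, was covered in part and thinly. Its region, chr17:35496051-35509150, was 13.1 kb long and held 65.9% of the 4755 bp gene on the plus strand, from 10.0 kb upstream to 3.13 kb downstream of the start, with the starts of all 6 coding transcripts. These edges and the coverage include the 2.5 kb added on each side of a called peak. The log2 value was 8.59 in WT and 8.84 in MommeD43, from 118 and 174 reads per library. Per kb the level was 29.4 normalized counts in WT and 35.0 in MommeD43, rank 8431 and rank 6659, on either side of the middle of the table. In WT Pou4f1 was 13.8 times and Pou3f1 2.29 times as dense as Pou5f1. The difference of 0.25 (SE 0.099, interval 0.057 to 0.45) was close to the 0.26 median of the 19 other regions within 500 kb. As deposited 17 of those 19 were above 0, where 60.2% of all regions were. The Pou5f1 difference was 0.010 with region totals set equal and turned to -0.015 with the GC trend removed. The region over Pou5f1 was shared with the antisense gene Gm19553.

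Pou2f3, needed for tuft cells, taste cells and keratinocytes, was the longest member, at 86431 bp (chr9:43123939-43210369, minus strand), and was marked in pieces. Its 5 regions, which include the 2.5 kb added on each side of a called peak, together covered 66.1% of the body. The largest, chr9:43188501-43217350, held the starts of both coding transcripts and a ribosomal protein pseudogene, and had a log2 value of 10.76 in WT and 10.81 in MommeD43. Its difference was 0.045 (SE 0.048), within counting error, and its density 60.3 and 62.2 normalized counts per kb. It was -0.20 with region totals set equal, -0.13 with the abundance trend removed, -0.21 without the GC trend and -0.22 when a density trend was also taken out, all past the counting interval. The other 4, further into the gene, ran from 24.5 to 49.3 normalized counts per kb in WT.

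The inner regions of Pou2f3 were taken in turn. From the start inwards, chr9:43167651-43175800 was at 8.06 in WT and 8.31 in MommeD43, a difference of 0.25 (SE 0.12, interval 0.012 to 0.48) that was 0.0046 with region totals set equal. Next, chr9:43148451-43161400 was at 9.32 and 9.27, a difference of -0.044 (SE 0.081) and the only one of the 10 member regions below 0 as deposited. Then chr9:43136001-43144300 was at 8.16 and 8.22, a difference of 0.070 (SE 0.12), and chr9:43128801-43134700 at 7.17 and 7.35, a difference of 0.17 (SE 0.16). The intervals of these last 3 included 0. With region totals set equal they were at -0.29, -0.17 and -0.069, and with the GC trend removed at -0.14, -0.18 and -0.015. Summed over its regions Pou2f3 had 3074 normalized counts in WT and 3192 in MommeD43, and the start region held 56.6% and 56.2% of them, so the distribution along the gene was alike.

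Over all members, 9 of 10 regions had a higher value in MommeD43 and 1 a lower one, where 60.2% of all regions were higher and 39.8% lower. With region totals set equal the count was 4, where 37.1% of all regions were higher, so neither count sets the members clearly apart from the rest. Past a difference of 1 on the log2 scale, that is 2-fold, 0 members were higher and 0 lower, against a background of 6.09% and 3.03%. Past 1.5-fold the count was 1 higher, Pou3f1, against 14.2%. Outside the counting interval 6 were above and 0 below, against 40.9% and 23.4%. These shares were not matched for read depth, on which the interval depends. Member regions had 44.2 to 4984 WT reads per library, beside a median of 100.1 over all regions. The median difference of the members was 0.16, beside 0.11 over all regions, 0.075 over autosomal regions and 0.17 over the 4422 autosomal regions that held the start of a protein-coding gene. Over the 6 member regions that held the gene start the median was 0.20. As deposited, Pou3f1 had the highest difference among the members.

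The 6 regions over gene starts fell in the order Pou4f1, Pou4f2, Pou4f3, Pou3f1, Pou2f3, Pou5f1 by density in both genotypes. In WT the closest neighbours were Pou3f1 and Pou2f3, 0.16 apart on the log2 scale (0.075 to 0.25), which were 0.84 apart in MommeD43 (0.77 to 0.91). In MommeD43 the closest were Pou4f1 and Pou4f2, 0.46 apart (0.43 to 0.49). No counting interval of the steps in this order included 0, but their spread over cell lines is not known.

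Counted over the 2 kb centred on the start, CpG density did not follow this order. Pou4f1 had 176 CpGs, Pou3f1 144, Pou4f2 118 and Pou4f3 95. Pou3f2, with 137, and Pou3f3, with 124, were in the same range but had no region, nor had Pou2f1, a broadly expressed octamer-binding factor, with 212. Pou5f1 had 43 and Pou2f3 had 29, and both had a region over the start. The POU genes in the plot of CpG content thus include CpG-rich starts with and without a region.

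**Figure D4:**
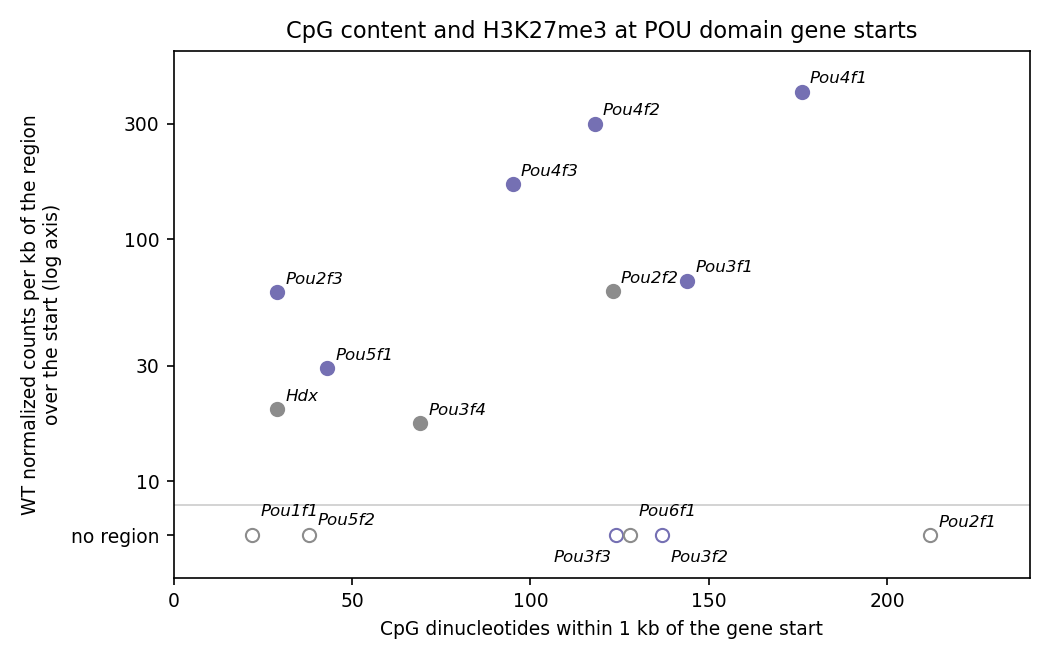
CpG dinucleotides within 1 kb of each POU gene start (x axis) against the WT density of the region over that start in normalized counts per kb (log axis), with members in violet, other POU genes in grey and genes without a region as open circles in the bottom strip. Of the 4 starts with the most CpGs, Pou2f1 and Pou3f2 had no region.

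Among the 8 other mouse POU domain genes, 3 had a region. Pou2f2, a B cell and neuronal factor, had 3, the largest of which, chr7:25124751-25199500 over its start, was at 12.15 in WT and 12.39 in MommeD43, a difference of 0.24 (SE 0.029) that became -0.0030 with region totals set equal. Its 2 regions further into the gene differed by 0.46 (SE 0.12) and 0.33 (SE 0.11), more than the 0.24 by which that scaling lowers every value. Of the autosomal regions in their GC deciles, 71.9% and 40.6% had lower differences. The Pou2f2 start region was at -0.073 with the GC trend removed. On the X chromosome, Pou3f4, a hearing gene, had a weak region at 6.57 in WT and 6.95 in MommeD43, a difference of 0.38 (SE 0.20) whose interval, -0.0096 to 0.76, included 0 and which was 0.13 with region totals set equal. Hdx, a divergent member, had a region over its start at 7.02 and 5.75, a difference of -1.27 (SE 0.23) that was -0.23 with the GC trend removed, and one at its 3′ end that differed by -0.77 (SE 0.26). Hdx thus had the lowest differences of the POU genes, on a chromosome where 75.7% of regions were higher. Pou1f1, Pou2f1, Pou5f2 and Pou6f1 were among those with no region, although one came to 5.40 kb from Pou2f1 and one to 7.12 kb from Pou6f1.

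Genes known to act with each subgroup were read in the same way, by the region of highest mean value over each gene. Of 20 sensory neuron genes 18 had a region, with a median of 198 normalized counts per kb in WT. Single genes were far lower, such as Ntrk2, another neurotrophin receptor, at 23.3. Their differences had a median of 0.43, with 16 above 0 and 2 below. With region totals set equal 14 were above 0, where 37.1% of all regions were, and with the GC trend removed 17 were, where 55.9% of all regions were. As deposited the share over all regions was 60.2%. The median of the list was 0.19 with region totals set equal. Prrxl1, a factor of pain-sensing neurons, was at 11.56 in WT and 12.32 in MommeD43 and had the highest difference as deposited, 0.76 (SE 0.033), but was at 0.55 with the GC trend removed, where Isl1, an early sensory neuron factor, was highest at 0.75. Barhl2, a retinal and spinal factor, had 0.70 (SE 0.016) as deposited and 0.46 with region totals set equal. Ntrk3, the neurotrophin-3 receptor, had the lowest, -0.50 (SE 0.11), at a region away from its start. As deposited, the Pou4f differences of 0.13 to 0.29 lay below the median of this list. Without the GC trend that median was 0.30, and Pou4f3, at 0.31, was above it.

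Of 10 neural progenitor genes 7 had a region, and Sox2, Sox11 and Fabp7 shared with Pou3f2 and Pou3f3 the lack of one. Of the 7 differences 5 were above 0, as were 60.2% of all regions, and their median of 0.35 was below the 0.72 of Pou3f1. With region totals set equal, where 37.1% of all regions were above 0, the count was again 5 and the median 0.10. With the GC trend removed, where 55.9% were, the count was 5 and the median 0.12. Pax6, a cortical progenitor factor, was at 9.27 in WT and 10.45 in MommeD43, a difference of 1.18 (SE 0.071), and Sox3, on the X chromosome, had 0.91 (SE 0.069). Dll1, a Notch ligand, had -0.62 (SE 0.061) at a region that did not hold the start, and -0.33 with the GC trend removed.

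Of 19 pluripotency genes 12 had a region, and Nanog, Sox2, Klf5, Zfp42, Dppa3, Dppa4 and Tcl1 had none. Of the 12 differences 11 were above 0, with a median of 0.40, where 60.2% of all regions were above 0. With region totals set equal 9 were, against 37.1%, with a median of 0.16. With the GC trend removed 7 were, near the 55.9% of all regions, with a median of 0.195. Tbx3, which also patterns limb and heart, was at 11.67 in WT and 14.19 in MommeD43, a difference of 2.51 (SE 0.028), and Nr5a2, a nuclear receptor, had 1.44 (SE 0.037). Tfcp2l1 had 0.10 (SE 0.10), which was -0.14 with region totals set equal and -0.058 with the GC trend removed, and Tdgf1, a Nodal co-receptor, had the lowest difference, -0.68 (SE 0.049). Pou5f1, at 0.25, was below the median of this list as deposited.

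Of 10 tuft cell and epidermal genes 5 had a region, 4 above 0 and 1 below, with a median of 0.35, where 60.2% of all regions were above 0. With region totals set equal 3 were above 0, against 37.1%, with a median of 0.11, and with the GC trend removed 4 were, against 55.9%, with a median of 0.12. As deposited Chat, which makes acetylcholine, had the highest difference, 0.71 (SE 0.027), followed by Dclk1, a tuft cell marker, at 0.65 (SE 0.057), while with the GC trend removed they were at 0.545 and 0.554. With region totals set equal they were at 0.47 and 0.41. Ascl2, a tuft and intestinal stem cell factor, had 0.22 (SE 0.033), which was -0.023 with region totals set equal, and Trpm5, the taste cation channel, had -0.29 (SE 0.019), which was -0.53 under that scaling. The start region of Pou2f3, at 0.045, lay between Trpm5 and Ascl2.

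**Figure D5:**
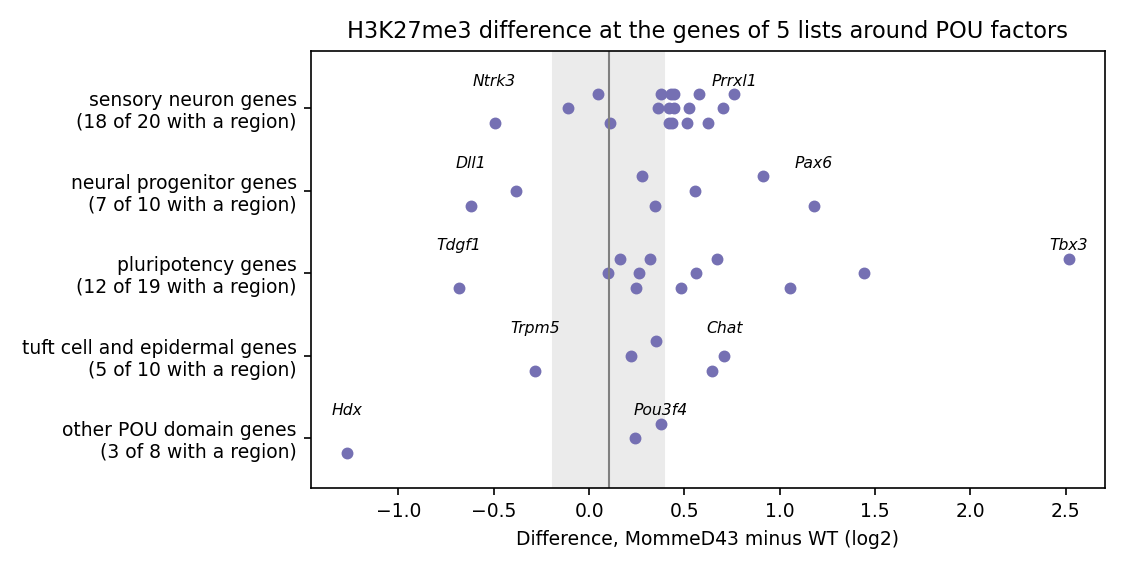
Log2 difference, MommeD43 minus WT, of the region of highest mean value over each gene of 5 lists, 1 point per gene, with the median (line) and quartiles (band) of all regions and the lowest and highest gene of each list named. Most points of the sensory neuron list lay right of the band, above 0.39, and Tbx3 lay farthest right at 2.51.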

How the data were processed

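NSC lines were profiled by H3K27me3 ChIP-seq, 3 per genotype, with whole cell extract (WCE) as control. How the chromatin was fragmented is uncertain: nuclease digestion per the labels, shearing per the methods. The authors trimmed reads (Trim Galore 0.4.4, per the labels), aligned them with Bowtie2 2.3.4.1 to GRCm38.p6, called peaks against WCE, extended each by 2.5 kb and joined those closer than 1 kb. Per the file headers, the deposited table has 2 value columns of log2 values, which the authors made from library-size normalized read counts pooled by genotype, with WCE not subtracted. Replicate models could therefore not be run, no p-value is given, and values of single libraries were not analysed here.

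The reads behind each value were recovered from the table: the antilog of 3 times a value is a whole multiple of a constant, within 0.1, for 1138 of 1139 WT and 681 of 684 MommeD43 values with products under 30000. The median was 100.1 reads per library in WT and 129.96 in MommeD43, and the median counting error 0.11. The recovery was tested on simulated data. Start and end columns were used, since the end differed from that in the region's name for 8582 regions. Genes came from GENCODE mouse release 21, and GC content, CpGs and promoters from the RefSeq GRCm38.p6 sequence and tables. Promoter sequences were taken for 5 of the 8 members. Pou3f1 and Pou2f3 had no entry, and Pou4f3, on chromosome 18, was left out. The members and gene lists were chosen with earlier results of these data known. Named genes were all members, other POU genes, and the 2 highest and 2 lowest differences of each list; some of these are not reported here. Alternatives were equal region totals (both columns scaled to one summed linear value), an autosomal median of 0, and removal of trends with abundance, GC content, or GC content and density (running medians in 40 bins). Others were a pseudocount of 10, a geometric mean over the 2 columns of at least 50 reads per library, and flanks of 0 and 20 kb. Start regions only, a threshold of 1.5-fold, and values per kb were also used. The count of regions above WT and the GC trend for listed genes were added after seeing the data. Python 3.11.15, numpy 2.4.6, pandas 2.3.3 and matplotlib 3.10.9 were used.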

Additional observations from a re-analysis of the deposited data

How the results depend on the processing

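The number of members with a region stayed at 6 with flanks of 0 and 20 kb. The median difference of the member regions, 0.16 as deposited, was -0.077 with region totals set equal, which shifts every difference down by 0.24, -0.0092 without the abundance trend, -0.0062 without GC and density trends and 0.033 without the GC trend. Under these alternatives the regions above WT numbered 4, 5, 5 and 5, in that order, instead of 9, where 37.1%, 50.1%, 55.9% and 55.9% of all regions were above WT. Pou4f1 reversed to -0.084 with equal totals, -0.16 without the abundance trend and -0.015 without GC and density trends. Pou4f2 reversed to -0.11 and -0.18 under the first and second of these, Pou4f3 to -0.021 without the abundance trend and Pou5f1 to -0.015 without the GC trend. Of 60 values of single regions under 6 alternatives, 30 shifted by less than the half-width of their 95% counting interval and 30 by more. In all 19 changed sign, 7 of them where the deposited interval had excluded 0. A threshold of 1.5-fold gave 1 higher region instead of 0. The median percentile of the member levels went from 79.0 to 83.8 in WT and from 77.1 to 80.7 in MommeD43 per kb. Apart from the alternatives' own construction, the cause was not tested. No paired analysis was possible because both value columns pool the replicates, so fits without single replicates or with the replicate number as a block were not run. Depth limits the Pou2f3 and Pou5f1 differences, whose counting errors reach 0.16.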
